A study of Mus musculus with 2 samples.

Results

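The Dcn-high fibroblast-like cells are 319 of the 9349 filtered cells in a culture of induced myogenic progenitor cells (iMPC), a share of 3.41% (exact binomial 95% interval 3.05 to 3.80, counting error only). They were chosen by raw counts of unique molecular identifiers (UMIs, which mark single captured RNA molecules): a barcode entered with at least 8036 UMIs, at least 500 genes and at most 20% mitochondrial UMIs, and was kept with at least 5 Dcn UMIs, no Pax7 UMI and at most 1 Myog UMI. Dcn encodes decorin, a collagen-binding proteoglycan of connective tissue. Pax7 marks satellite cells, the stem cells of muscle, and Myog encodes myogenin, the factor of committed muscle precursors. These 3 genes chose the cells, so their levels are given as description and enter no count. The cells were compared with the other 9030 filtered iMPC cells and with 2179 of 6013 filtered cells of a mouse embryonic fibroblast (MEF) culture, those with at least 5 Dcn UMIs (36.2%), called Dcn MEF cells here. MEF cells were filtered by the same gene and mitochondrial limits but with no UMI minimum. The Dcn MEF cells reached down to 3528 UMIs.

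The study profiled 2 mouse cultures by 10x Genomics droplet sequencing of RNA 3′ ends, to find which cell types an iMPC culture holds and how they differentiate. Both cultures carried the genotype Tg:Pax7-nGFP/C57BL6;DBA2 and have mouse embryonic fibroblasts as their source. iMPC were made from fibroblasts with MyoD, the master factor of muscle, together with F/R/C, and were held in medium with F/R/C. The labels do not spell out F/R/C. In the published iMPC protocol the letters stand for forskolin, which raises cyclic AMP, RepSox, which blocks the TGF-beta receptor, and CHIR99021, which inhibits the kinase GSK3 and so turns on Wnt signalling. The iMPC culture is described as a stable clone, so 1 clone stands for the condition. The MEF culture was in MEF media by its treatment label, although its protocol field repeats the iMPC text. Each culture gave 1 library. No test between conditions was therefore possible, all intervals cover counting error only, and culture, clone, medium and library cannot be told apart in any comparison with MEF.

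Fibroblasts build and remodel the extracellular matrix. They secrete fibrillar collagens, the proteoglycans that space the fibrils, the enzymes that process and cross-link them and the proteases that take them apart. In muscle, interstitial fibroblasts and fibro-adipogenic progenitors, known by Pdgfra, surround the fibres and signal to satellite cells. Under TGF-beta, fibroblasts raise collagen I and contractile genes such as Acta2 and become myofibroblasts.

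The Dcn-high cells held 5950280 UMIs in all, with a median of 17314 per cell (8243 to 59021) and 3845 genes. The other iMPC cells had a median of 21047.5 UMIs and the Dcn MEF cells of 20634. Mitochondrial transcripts took a median of 3.30% of UMIs in the Dcn-high cells, 3.73% in the other iMPC cells and 5.99% in the Dcn MEF cells, and ribosomal protein genes took 27.9%, 30.7% and 22.2% of all UMIs. No barcode was shared by the Dcn-high and the Dcn MEF cells. Levels below are CPM, the UMIs of a gene summed over a set of cells and scaled to a common total for each set, and where 3 values are listed they stand for the Dcn-high, the other iMPC and the Dcn MEF cells in that order. A gene counted as higher or lower when the log2 ratio of CPM was at least 1 in size and the higher side reached 10 CPM. A sum of 0 was set to 3 counts.

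Against the other iMPC cells, 1458 of 8347 genes at or above 10 CPM were higher in the Dcn-high cells (17.5%) and 1100 were lower (13.2%). Against the Dcn MEF cells, 1037 of 8429 were higher (12.3%) and 1200 lower (14.2%). The median log2 ratio over all these genes was 0.07 against the other iMPC cells and -0.16 against MEF. Scaling by the median gene ratio shifts every ratio against MEF by 0.16 and turns the MEF split to 1200 higher and 936 lower. The counts for each gene group below are to be read against these shares. A gene far under 10 CPM in either set enters through the other set alone and can only be called in that direction.

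The cells carried the fibroblast label in their markers. Of the fibroblast markers, 9 of 11 tested genes were higher than in the other iMPC cells and none was lower, with a median log2 ratio of 2.31. Against MEF 4 of 12 were higher, 4 lower and 4 within 2-fold, with log2 ratios from Ly6a, a surface protein of mesenchymal progenitors, at -3.24 to Fap, a surface protease, at 3.46. Lum, which encodes lumican, a sister proteoglycan of decorin, stood at 178 CPM in the Dcn-high cells, 2.16 CPM in the other iMPC cells and 69.0 CPM in the Dcn MEF cells. Pdgfra, the PDGF receptor that marks connective tissue progenitors, stood at 78.5, 5.23 and 110.4 CPM, and Twist2, a transcription factor of dermal and other mesenchyme, at 179, 7.70 and 259 CPM. Thy1, a surface glycoprotein of fibroblasts, stood at 607, 124 and 677 CPM. These genes were thus well above the other iMPC cells, while against MEF the group was split. Pdgfra, Twist2, Thy1 and Vim were the members within 2-fold of the Dcn MEF cells. Vim and Fap missed the threshold against the other iMPC cells, with log2 ratios of 0.88 and 0.95. Dpt did not reach 10 CPM there.

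The markers given with the label were less even. Mmp3, the matrix protease stromelysin-1, stood at 325, 7.11 and 71.7 CPM, and Fmo2, a flavin monooxygenase, at 12.3, 0.489 and 1.02 CPM. Cpxm2, a carboxypeptidase-like matrix protein, stood at 5.88, 0.772 and 16.9 CPM, which is 35 UMIs over all Dcn-high cells, and it was lower than in MEF (log2 ratio -1.53, -2.06 to -1.04). Lum was detected in 31.3% of the Dcn-high cells, Mmp3 in 20.1%, Fmo2 in 5.33% and Cpxm2 in 4.08%. The 16 cells with most UMIs of the gene (the top 5%) held 61.2% of the Lum UMIs, 77.6% of the Mmp3 UMIs, 98.6% of the Fmo2 UMIs and all of the Cpxm2 UMIs. Leaving these cells out, a check added after the data were seen, by its construction tends to lower a gene. Without them the log2 ratio against the other iMPC cells was 5.09 for Lum and 3.43 for Mmp3, and Fmo2 turned to -1.46. Against MEF the ratios without these cells were 0.09, 0.09 and -2.52, so none of these 3 stayed 2-fold above it. No Cpxm2 UMI remained, and with 0 set to 3 counts its ratios went from 2.93 to -0.50 against the other iMPC cells and from -1.53 to -4.96 against MEF. Lum, Mmp3, Fmo2 and Cpxm2 were therefore found in some of the cells. At 5000 UMIs per cell Crabp1 was found in 91.2%, Thy1 in 80.3% and Twist2 in 47.3% (41.7 to 53.0) of them (unthinned 94.0%, 92.5% and 77.7%).

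The Mmp3 promoter is shown because Mmp3 is a marker of the label and is among the 10 genes that varied most between the cells. The stretch is the 150 bases before the start of Mmp3 in RefSeq on GRCm38.p6, chr9:7445672-7445821, plus strand, with capitals marking the AP-1 motif TGAGTCA, which was searched for on both strands.
Mmp3: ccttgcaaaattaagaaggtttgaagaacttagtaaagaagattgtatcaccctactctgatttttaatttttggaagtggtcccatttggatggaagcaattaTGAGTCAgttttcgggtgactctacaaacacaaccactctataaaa
The motif begins 46 bases before the start. It occurs on either strand in 2.84% of the 32851 RefSeq promoters of the table over the same 150 bases. The match is a description of the sequence, not of binding.

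Endothelial, immune and epithelial markers were at or near 0. The summed level in the Dcn-high cells was 0.840 CPM for 6 endothelial markers, 3.70 CPM for 6 immune markers and 0.168 CPM for 6 epithelial markers. Kdr, Emcn, Ptprc, Tyrobp, Aif1, Cdh1, Krt8, Krt18, Krt5 and Cldn4 had no UMI at all in them, with an exact upper limit of 0.620 CPM each. Adipoq of fat cells, Col2a1 and Comp of cartilage, Tnmd of tendon and Sox10 of glia also had none. Among interstitial progenitor genes 9 of 10 were higher than in the other iMPC cells, Cd34 (13.6, 0.683 and 12.9 CPM), Cd248 (118, 16.8 and 133 CPM) and Osr1 (33.9, 9.53 and 11.6 CPM) among them. Against MEF 3 of 11 were higher and 5 lower (median -0.49), and without the 16 highest cells of each gene 1 stayed higher. Gsn, which encodes the actin-severing protein gelsolin, was lower than in MEF at 225, 84.1 and 1046 CPM. Dpp4 had no UMI and Pi16, of the adventitial fibroblast state, had 1. Scrublet marked 1 of the 319 cells as a doublet (0.313%, 0.00794 to 1.73) and 336 of the other 9030 (3.72%). The conditions on Pax7 and Myog can leave out doublets with muscle cells, so these shares are not a like comparison.

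Muscle genes were present in the Dcn-high cells at a trace. All 12 myocyte genes were lower than in the other iMPC cells (median log2 ratio -4.31), and their levels were 1.82% to 6.85% of those in the other iMPC cells, with a median of 5.03%. The conditions on Pax7 and Myog tend to place muscle cells in the other set, so lower muscle levels were partly set in advance. Mylpf, a fast myosin light chain, stood at 254 CPM in the Dcn-high cells, 4937 CPM in the other iMPC cells and 2.43 CPM in the Dcn MEF cells. Myh3, the embryonic myosin heavy chain, stood at 30.1, 760.0 and 0.0423 CPM, and Ttn, the giant spring protein of the sarcomere, at 23.5, 1294 and 0.0423 CPM. Of the other iMPC cells, 1546 also had no Pax7 and at most 1 Myog UMI, and held no Dcn UMI. In these Mylpf stood at 843 CPM and Myh3 at 111 CPM. Ttn led the genes that were lowest against the other iMPC cells, followed by Trdn (2.18, 102 and 0 CPM), Casq2 (5.21, 196 and 0.0847 CPM) and Lmod2 (1.51, 54.9 and 0 CPM), which serve calcium release, calcium storage and thin filaments. Cacng1, Cobl, Lmod3, Klhl40, Mymk, which fuses myoblasts, and Rbm24 completed these 10, with log2 ratios of -5.07 to -4.91 apart from Cacng1 at -5.14. Myosin and actin genes have near-identical copies, between which reads can be split.

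That trace was set beside the level that free RNA could give. In 48846 iMPC barcodes of 200 to 600 UMIs, far under the minimum of 8036 used for a cell, the median was 430 UMIs, or 2.48% of the median Dcn-high cell. Whether some of these barcodes hold pieces of cells was not tested. At that share their profile would give Mylpf 200.2 CPM, Myh3 21.2 CPM and Tnnc2 138 CPM, against 254, 30.1 and 135 CPM measured. Over the 12 myocyte genes the measured level was 0.973 to 1.49 times this estimate, with a median of 1.26. The closeness depends on the barcodes: with the profile of those of 1 to 100 UMIs at the same share, the measured level was 1.07 to 3.54 times the estimate, with a median of 2.25. Both estimates use the share of 2.48% from the barcodes of 200 to 600 UMIs, and a smaller share would lower both. For fibroblast genes the estimate was far below the measured level, for example 5.25 CPM against 2605 CPM for Col3a1. The 11 of 11 myocyte genes that were higher than in the Dcn MEF cells, Tnnc2, Myl1 and Actc1 among the 10 highest of all, are therefore given with the free-RNA levels, and their expression by the cells was not tested. Myocyte UMIs were also uneven between the cells. After thinning to 5000 UMIs per cell the Fano factor, the variance over the mean of UMI counts, was 16.6 for Acta1, skeletal muscle actin, with 84 UMIs in its highest cell. It was 11.2 for Myl1 and 9.82 for Mylpf, with highest cells of 58 and 66 UMIs, and 16 cells held 25.2%, 26.2% and 24.1% of the UMIs of these 3 genes.

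Some genes of muscle precursors stood further above the same estimate. Myod1 was at 9.08 CPM against 2.26 CPM estimated from the barcodes of 200 to 600 UMIs, or 4.01 times it. Myf5, an early myogenic factor, was at 6.05 against 0.416 CPM and Itga7, the laminin receptor of muscle, at 35.8 against 2.12 CPM. Mymk and Mymx, which fuse myoblasts, were at 1.45 and 1.07 times the estimate. After thinning every cell to 5000 UMIs, a Myod1 UMI was found in 2.82% of the Dcn-high cells, 40.1% of the other iMPC cells and 0.0460% of the Dcn MEF cells (unthinned 11.3%, 66.7% and 0.184%).

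**Figure D1:**
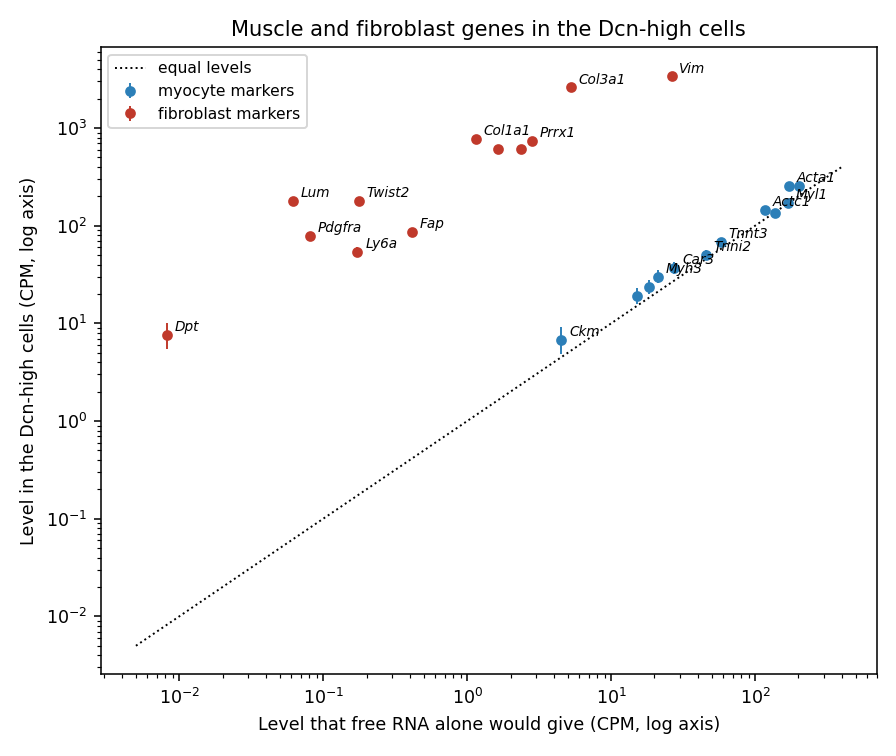
Level of myocyte markers (blue) and fibroblast markers (red) in the Dcn-high cells (vertical axis, CPM, log scale, bars are exact 95% counting intervals) against the level estimated for free RNA from barcodes of 200 to 600 UMIs (horizontal axis, CPM, log scale). The 12 myocyte markers lie along the dotted line of equal levels, at 0.973 to 1.49 times it, and the fibroblast markers lie far above it. The closeness depends on the barcodes chosen. With the profile of those of 1 to 100 UMIs at the same share, the myocyte markers were at 1.07 to 3.54 times the estimate.

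Dcn itself ranged from 5 to 162 UMIs per cell among the 319, with a median of 19, and its level was 1541, 26.2 and 566 CPM. Just inside the threshold, 69 cells held 5 to 9 Dcn UMIs, and just outside it, 54 cells with no Pax7 UMI and at most 1 Myog UMI held 3 or 4. Some genes were at like levels on the 2 sides of the threshold: Pdgfra stood at 52.0 CPM just outside and 55.9 CPM just inside, Col3a1 at 2087 and 2222 CPM and Mylpf at 232 and 224 CPM. Others were higher inside, among them Crabp1, the cytoplasmic retinoic acid binding protein of embryonic mesenchyme, at 2137 and 3366 CPM. Lum was too, at 10.4 and 26.4 CPM, which is 11 and 34 Lum UMIs. Fmo2 stood at 1.89 and 20.2 CPM (2 and 26 UMIs) but did not follow the threshold. It was at 23.8 CPM (21 UMIs) in cells of 2 Dcn UMIs and 2.47 CPM (4 UMIs) in those of 10 to 19. Others again were higher outside: Acta2 stood at 1757 and 514 CPM, Tagln at 590.2 and 174 CPM, Col1a1 at 1039 and 553 CPM and Ccl7 at 408 and 148 CPM. The cells just outside were thus not alike those just inside in every gene. Acta2 and Tagln were also higher at 1 Dcn UMI (1195 and 519 CPM) and at 2 (784 and 371 CPM) than in any band inside. Col1a1 stood at 528 and 474 CPM at 1 and 2 Dcn UMIs, and Ccl7 at 52.7 and 42.0 CPM. Inside, Col1a1 reached 1048 CPM in cells of 20 to 49 Dcn UMIs. For Col1a1 and Ccl7 the higher level outside was thus that of the 54 cells of 3 or 4 Dcn UMIs. Lum climbed with Dcn inside the set, at 26.4, 59.9, 160.2 and 601 CPM in cells of 5 to 9, 10 to 19, 20 to 49 and 50 or more Dcn UMIs. In the same bands Mmp3 stood at 29.5, 288, 410.5 and 589.8 CPM. It did not follow the threshold. Outside, Mmp3 stood at 217 CPM (191 UMIs) in cells of 2 Dcn UMIs and 46.3 CPM in those of 3 or 4. Both levels were above that of the cells of 5 to 9. In the bands inside, Scg2, which encodes secretogranin II, went the other way from Lum, at 116, 105, 48.5 and 13.0 CPM. Median UMIs per cell in these bands were 17409, 16002.5, 17828.5 and 19063.5, highest where Dcn was highest, and the part of depth in these values was not tested.

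Dcn also stood beside a graded background. Among the 1546 filtered iMPC cells with no Dcn, no Pax7 and at most 1 Myog UMI, Col3a1 stood at 928 CPM, against 2222 CPM in cells of 5 to 9 Dcn UMIs. Crabp1 stood at 184 CPM in these Dcn-free cells and Areg at 216 CPM. A further 234 filtered iMPC cells had at least 5 Dcn UMIs but failed the other conditions: 194 held a Pax7 UMI, 81 held 2 or more Myog UMIs and 41 held both. In those 234 cells Lum stood at 61.7 CPM, Crabp1 at 2287 CPM, Twist2 at 115 CPM and Mylpf at 2125 CPM. The cells outside the conditions thus had lower levels of Lum, Crabp1 and Twist2 than the Dcn-high cells and a higher level of Mylpf.

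**Figure D2:**
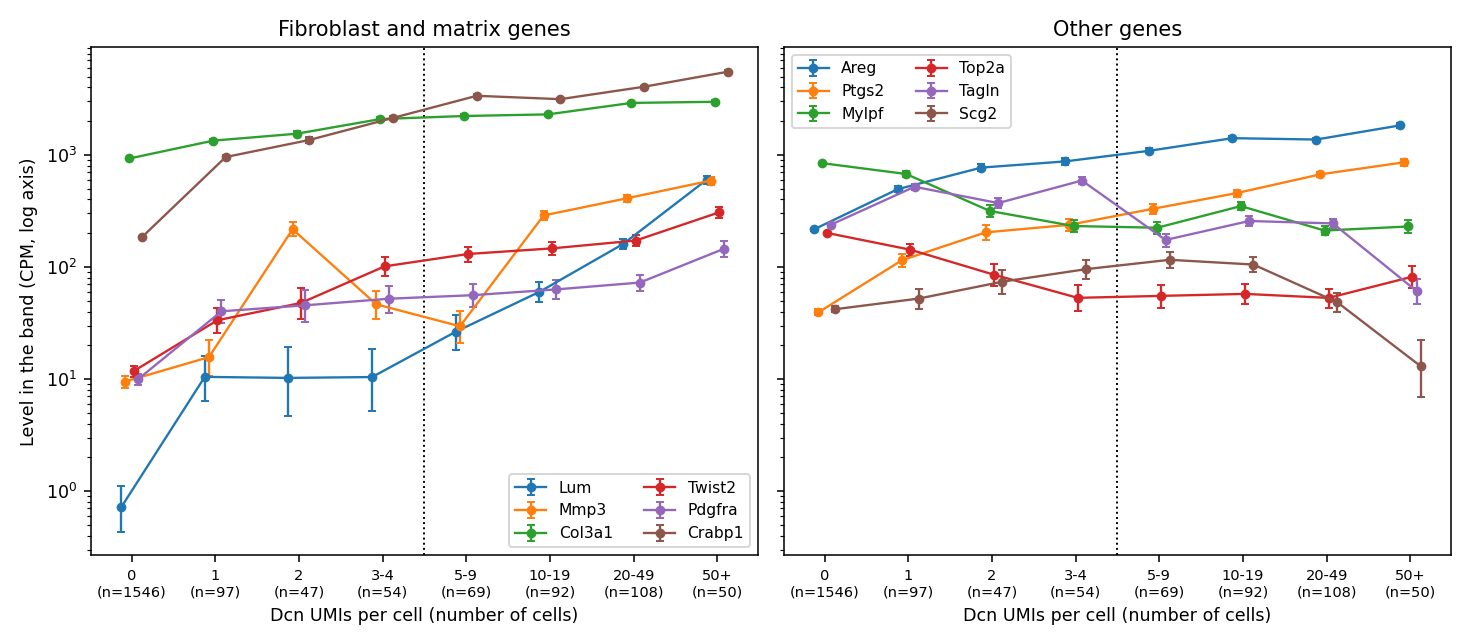
Levels (CPM, log axis) in filtered iMPC cells with no Pax7 UMI and at most 1 Myog UMI, by Dcn UMIs per cell, with exact 95% counting intervals and the number of cells under each band. The dotted line is the threshold of 5 Dcn UMIs. Lum goes from 26.4 to 601 CPM across the bands inside it, while Mylpf stays between 211 and 349 CPM.

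Against the other iMPC cells, the genes with the largest ratios among those at or above 50 CPM were Lum, Ccl5, Mmp3, Grp, Trf, Il11, Crabp1, Twist2, Ptgs2 and Cyp26b1. They fell into genes of most cells and genes of a few. Crabp1 was at 3904, 157 and 4174 CPM (log2 ratio 4.64 against the other iMPC cells and -0.10 against MEF) and was found in 94.0% of the cells. Ptgs2, the inducible cyclooxygenase that starts prostaglandin synthesis, was at 569.9, 25.1 and 42.9 CPM and in 84.0%. Cyp26b1, which breaks down retinoic acid, was at 237, 11.8 and 1.16 CPM and in 69.9%. In contrast Ccl5 (194, 4.07 and 4.55 CPM), a chemokine, had 97.6% of its UMIs in 16 cells and a log2 ratio of 0.29 without them. Grp, Il11 and Trf, which encode gastrin-releasing peptide, interleukin-11 and transferrin, had 93.0%, 88.1% and 63.7% of their UMIs in 16 cells.

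Decorin and lumican belong to the small leucine-rich proteoglycans, which lie in gene clusters. Dcn (chr10:97479609-97518143) and Lum (chr10:97565128-97572703) are neighbours in GENCODE M21 on GRCm38. Kera, the next member, which encodes keratocan, was at 4.37, 0.110 and 1.19 CPM, below 10 CPM. Bgn, which encodes biglycan, was at 829.5, 109.8 and 1461 CPM and was within 2-fold of MEF (log2 ratio -0.82). A second cluster holds Aspn (chr13:49544443-49567565), for asporin, and Ogn (chr13:49608046-49624501), for osteoglycin. Aspn was at 1.18, 0.278 and 133 CPM, that is 7 UMIs in the Dcn-high cells, for a log2 ratio of -6.82 (-8.13 to -5.78) against MEF. Ogn was at 1.51, 26.8 and 50.8 CPM, lower than in both other sets. Podn was lower than in MEF (log2 ratio -2.73) and Epyc had no UMI in any set. Aspn and Ogn on chromosome 13 were thus both below MEF. Dcn, which chose the cells, supports no statement on its own cluster, and Lum was within 2-fold of MEF without its 16 highest cells (log2 ratio 0.09).

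Fibrillar collagens were higher than in the other iMPC cells throughout, in 6 of 6 tested genes (median log2 ratio 2.48), and split against MEF, with 3 higher and 3 lower of 7. The 2 chains of collagen I, the main fibril of scar and skin, were below MEF: Col1a1 was at 780.0, 60.7 and 2364 CPM (log2 ratio against MEF -1.60) and Col1a2 at 605, 156 and 2266 CPM (-1.91). Col3a1, the chain of collagen III, was above both sets at 2605, 457 and 911 CPM (log2 ratio against MEF 1.51). Col5a3, a collagen V chain, was at 479, 64.7 and 6.46 CPM, a log2 ratio of 6.21 (6.04 to 6.39) against MEF. Col5a1 was at 387, 76.3 and 334 CPM and Col5a2 at 829, 152 and 379.6 CPM. Col11a1 was lower than in MEF, at 1.01, 0.481 and 40.2 CPM. At 5000 UMIs per cell Col1a1 was found in 55.2% (49.5 to 60.7) of the Dcn-high cells, 7.44% of the other iMPC cells and 98.6% of the Dcn MEF cells (unthinned 68.0%, 13.8% and 99.5%). Col3a1 was found in 99.1%, 61.6% and 89.6% (unthinned 99.4%, 82.9% and 98.1%).

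Of the other collagens 11 of 13 were higher than in the other iMPC cells and 2 lower, and 9 of 14 were higher than in MEF and 3 lower (medians 2.68 and 1.91). The chains of collagen VI, a beaded network that is part of the satellite cell niche, were all above both sets: Col6a1 at 1785, 244 and 429 CPM, Col6a2 at 927, 107 and 225 CPM and Col6a3 at 1262, 105 and 132 CPM. The basement membrane chains Col4a1 (1568, 245 and 456 CPM) and Col4a2 (789, 144 and 270.0 CPM) were also above both. Col15a1 (301, 77.4 and 1.93 CPM) and Col18a1 (1241, 289.8 and 48.7 CPM), the collagens that adjoin basement membranes, had log2 ratios against MEF of 7.29 and 4.67. Col7a1, of anchoring fibrils, was at 90.6, 4.70 and 21.1 CPM. Col8a1 and Col4a5 were lower than in MEF, at 6.22 against 122 CPM and 0.840 against 49.4 CPM. Col4a1, Col4a2 and the collagen VI chains were thus above MEF in a set of cells whose collagen I was below it.

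Enzymes that fold and trim procollagen were higher than in the other iMPC cells in 15 of 17 genes, with none lower. Against MEF 7 were higher and 4 lower of 19. Plod1, a lysyl hydroxylase, was at 323, 39.95 and 18.0 CPM, and the prolyl hydroxylase subunits P4ha1 and P4ha2 were at 516, 199 and 85.1 CPM and 151, 42.1 and 46.0 CPM. Lox, the lysyl oxidase that cross-links fibrils, was lower than in MEF at 54.8, 21.7 and 284 CPM, as was the procollagen proteinase enhancer Pcolce at 216, 96.8 and 556 CPM.

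Of the elastic fibre genes 7 of 14 were lower than in MEF and 1 was higher (median -0.97), while 6 of 12 were higher than in the other iMPC cells. Fbln5, which encodes fibulin-5, an organiser of elastic fibres, was at 5.71, 1.89 and 367 CPM, a log2 ratio of -6.00 (-6.53 to -5.52) against MEF. It was found at 5000 UMIs in 1.57% of the Dcn-high cells, 0.853% of the other iMPC cells and 73.2% of the Dcn MEF cells (unthinned 8.46%, 4.01% and 94.3%). Fbln2 was at 38.8, 30.8 and 777 CPM. Mfap4 had no UMI in the Dcn-high cells and 44.8 CPM in MEF, so it was at least 88.9-fold lower. Fbn1, the main microfibril protein, was within 2-fold of MEF at 386, 54.0 and 209.9 CPM, and Emilin2 was above both sets at 95.5, 7.98 and 7.09 CPM.

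**Figure D3:**
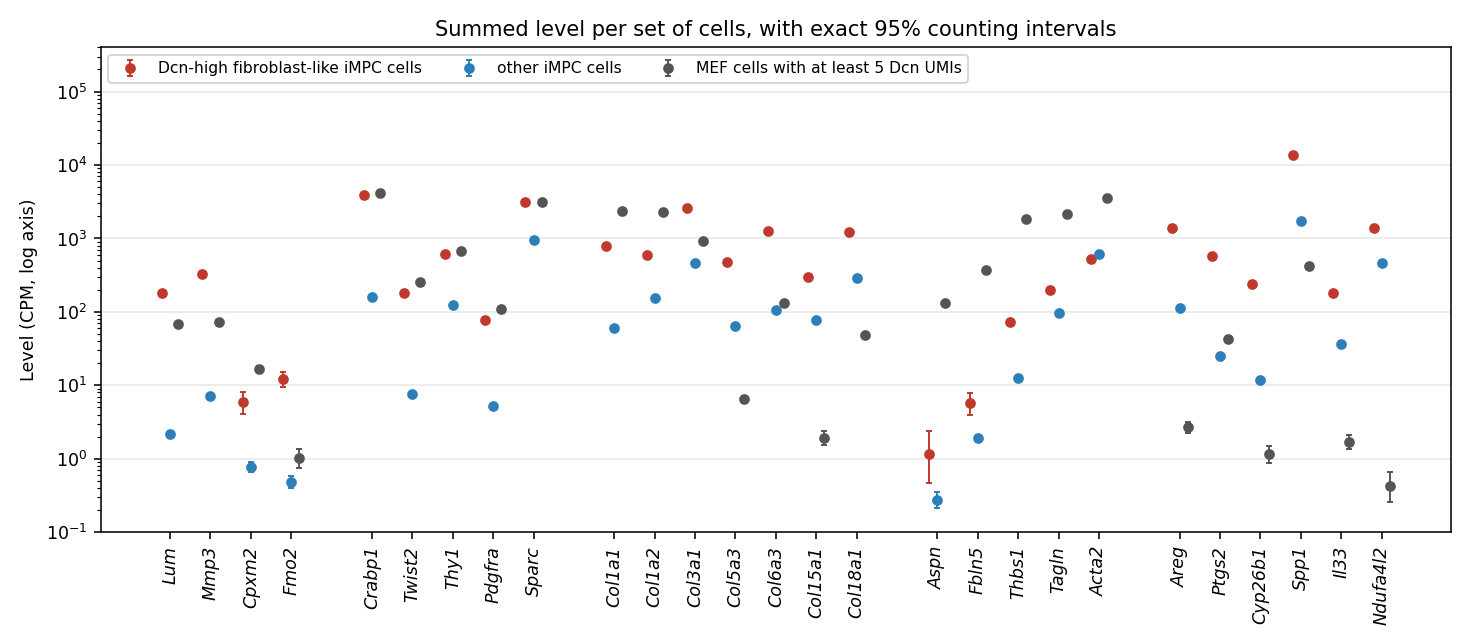
Summed levels (CPM, log axis, exact 95% counting intervals) of named genes in the Dcn-high cells (red), the other iMPC cells (blue) and the Dcn MEF cells (grey). Crabp1, Thy1 and Sparc lie near MEF, collagen I, Aspn, Fbln5, Thbs1, Tagln and Acta2 lie below it, and Col5a3, Col15a1, Col18a1, Areg, Cyp26b1, Spp1, Il33 and Ndufa4l2 lie above it.

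Matrix proteases were higher in 18 of 23 tested genes and lower in 2 against the other iMPC cells, and higher in 13 and lower in 6 of 24 against MEF, where 8 of the 13 stayed higher without the 16 highest cells of each gene. Mmp2, which degrades basement membrane collagen, was at 429, 32.3 and 79.6 CPM and was found in 92.8% of the cells. Mmp9 was at 87.9, 13.7 and 0.804 CPM, and Plau, the urokinase that activates plasmin, at 289, 95.03 and 52.5 CPM. Htra1, a secreted serine protease, was at 286, 48.3 and 129.6 CPM. Ctsk, the collagen-cleaving cathepsin, was above the other iMPC cells and below MEF at 73.4, 5.48 and 179 CPM, and Adamts5 was below both at 7.23, 42.3 and 23.8 CPM. Inhibitors were higher as well, 7 of 9 against the other iMPC cells and 6 of 11 against MEF, with 1 lower there, and 3 of these 6 stayed higher than in MEF without the 16 highest cells. Timp1, Timp3 and Serpine2 were at 745, 226 and 238 CPM, at 527, 53.8 and 242 CPM and at 741, 104 and 65.6 CPM.

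Matricellular proteins, which modulate how cells hold the matrix, were higher than in the other iMPC cells in 13 of 16 genes and split against MEF, 6 higher and 8 lower of 19. Spp1, which encodes osteopontin, was at 13517, 1728 and 415 CPM, or 7.82-fold and 32.5-fold above the other iMPC and Dcn MEF cells. It was found in 99.1% of the Dcn-high cells, 82.0% of the other iMPC cells and 51.6% of the Dcn MEF cells (unthinned). In iMPC cells with no Pax7, at most 1 Myog and no Dcn UMI it was at 2968 CPM. It was at 10287 CPM in those of 3 or 4 Dcn UMIs, just outside the threshold. Inside, it was at 14245 CPM at 5 to 9 Dcn UMIs and 10522 CPM at 50 or more. Sparc was at 3147, 945 and 3156 CPM, level with MEF. Thbs1, which encodes thrombospondin-1, an activator of latent TGF-beta, was at 73.9, 12.6 and 1814 CPM (log2 ratio against MEF -4.62), and Postn, for periostin, at 70.6, 12.2 and 201 CPM. Ccn4 and Tnc were also lower than in MEF, at 24.2, 7.83 and 231 CPM and 88.2, 50.5 and 462 CPM. Sparcl1 and Spon2 were above both sets, at 83.4, 13.0 and 1.25 CPM and 71.4, 8.52 and 1.76 CPM.

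**Figure D4:**
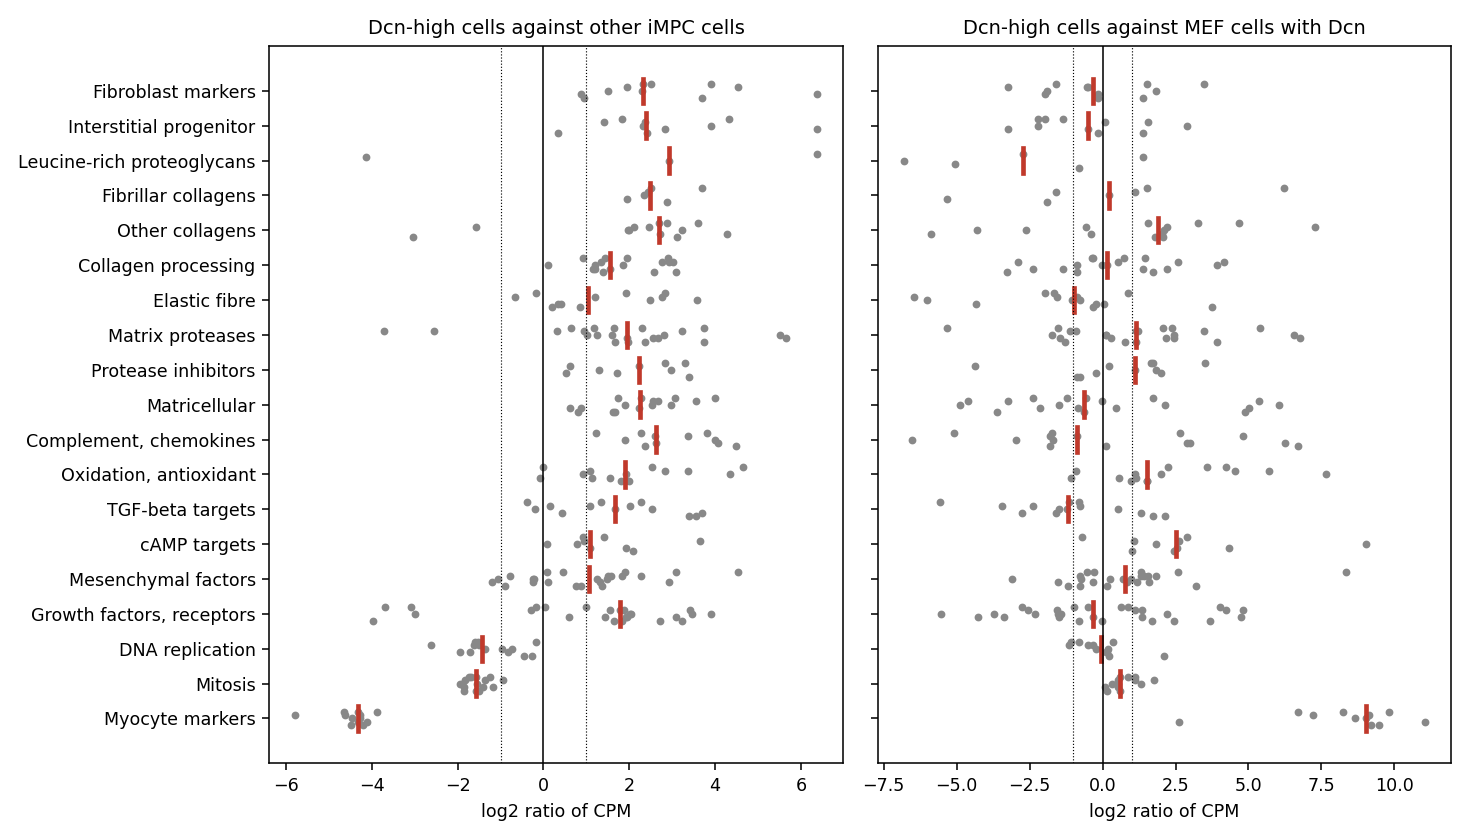
Log2 ratio of CPM of the Dcn-high cells to the other iMPC cells (left) and to the Dcn MEF cells (right) for each tested gene of each group (grey points) with the group's median (red bar). Dotted lines mark ratios of 2-fold. Myocyte and cell division genes lie to the left and matrix groups to the right against the other iMPC cells, while against MEF elastic fibre and TGF-beta genes have medians below 0 and cAMP genes a median of 2.50.

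Genes that TGF-beta raises in fibroblasts were mostly above the other iMPC cells and below MEF. Against the other iMPC cells 9 of 13 were higher and none lower, and against MEF 8 of 14 were lower and 3 higher (medians 1.66 and -1.19). Without the 16 highest cells of each gene, 6 of the 9 stayed above the other iMPC cells and 2 of the 3 above MEF. Acta2, smooth muscle actin, was at 533, 613 and 3608 CPM, and Tagln, which encodes transgelin, at 202, 95.2 and 2187 CPM. Lrrc15, a surface protein of activated fibroblasts, was at 2.18, 0.454 and 103 CPM (log2 ratio against MEF -5.56). Members above MEF included Tgfbi (89.4, 7.63 and 20.2 CPM) and Id3 (749, 555 and 298 CPM). Acta2 was concentrated, with 78.1% of its UMIs in 16 cells, and at 5000 UMIs it was found in 24.8% of the Dcn-high cells, 58.4% of the other iMPC cells and 85.8% of the Dcn MEF cells (unthinned 46.4%, 78.6% and 96.5%). Tagln was above the other iMPC cells only with its 16 highest cells, without which its log2 ratio was -0.93.

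Genes that cyclic AMP induces were above MEF in 9 of 10 tested cases, with none lower, and above the other iMPC cells in 5 of 9. Areg, which encodes amphiregulin, a ligand of the EGF receptor, was at 1397 CPM in the Dcn-high cells, 112 CPM in the other iMPC cells and 2.69 CPM in the Dcn MEF cells. Its log2 ratio was 3.64 (3.60 to 3.67) against the other iMPC cells and 9.02 (8.77 to 9.29) against MEF, and at 5000 UMIs it was found in 82.4%, 15.3% and 1.10% of the 3 sets (unthinned 93.1%, 24.96% and 3.49%). Nr4a1, an orphan nuclear receptor induced early by cyclic AMP, was at 62.2, 14.6 and 8.38 CPM. Pde4d and Pde4b, phosphodiesterases that break cyclic AMP down, were at 98.7, 26.0 and 17.9 CPM and 102, 53.7 and 16.6 CPM, and Sik1, a kinase induced by it, was at 57.8, 55.0 and 2.84 CPM. Fos and Dusp1, which many stimuli induce, were at 126, 73.4 and 21.7 CPM and 86.6, 45.3 and 24.5 CPM. Nr4a2 was the tested member not above MEF, with a log2 ratio of -0.71. Sik1 and Fos were within 2-fold of the other iMPC cells, so the difference from MEF in those genes was shared by the culture, while Areg and Nr4a1 stood above both.

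The Areg promoter is shown because Areg had the largest ratio among the cyclic AMP genes. The stretch is the 150 bases before the start of Areg in RefSeq on GRCm38.p6, chr5:91139449-91139598, plus strand. Capitals mark the cyclic AMP response element TGACGTCA, a palindrome that reads the same on both strands.
Areg: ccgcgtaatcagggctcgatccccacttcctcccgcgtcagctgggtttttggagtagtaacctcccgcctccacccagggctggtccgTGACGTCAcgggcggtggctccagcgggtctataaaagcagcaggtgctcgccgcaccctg
The element begins 61 bases before the start. Over the same 150 bases 1.36% of the 32851 RefSeq promoters of the table hold it. Over the full 300 bases listed for each promoter, 2 of the 10 cyclic AMP genes in the table hold it, Areg and Dusp1, against 1.79% of all promoters. A match does not show binding, and its absence from the other windows says nothing of the factor.

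Few Wnt targets reached 10 CPM. Of the 16 genes, 5 were tested against the other iMPC cells, 3 higher and 1 lower, and 4 against MEF, 1 lower. Axin2, the usual feedback target, was at 1.18, 4.08 and 0.0212 CPM. Dkk3, Dkk2 and Apcdd1, which are secreted or membrane antagonists, were at 30.3, 2.51 and 35.9 CPM, at 12.3, 3.39 and 90.4 CPM and at 13.4, 1.69 and 17.0 CPM. Dkk2 was above the other iMPC cells only with its 16 highest cells, without which its log2 ratio was -0.26. Axin2, Lef1, Tcf7 and Nkd2 did not reach 10 CPM in any set.

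Growth factors, their receptors and binding proteins were higher in 16 and lower in 4 of 25 against the other iMPC cells, and 11 higher and 11 lower of 29 against MEF. Among ligands, Hgf, the factor that activates satellite cells, was at 31.4, 2.96 and 2.46 CPM, Fgf7 at 27.4, 2.92 and 54.2 CPM, and Vegfa, the angiogenic factor, at 245, 90.7 and 13.1 CPM. Among antagonists, the BMP inhibitor Grem1 was at 183, 21.7 and 56.3 CPM and Nog, another BMP inhibitor, at 1.68, 21.9 and 0.762 CPM. Wnt5a was above the other iMPC cells and below MEF at 87.9, 24.7 and 255 CPM. Pdgfrb, the second PDGF receptor, was above both sets at 224, 34.2 and 48.0 CPM. Igfbp3 was above both at 929, 299 and 34.4 CPM, while Igf2 was at 2.18, 34.4 and 0.402 CPM and Igfbp2 at 24.0, 205 and 1.48 CPM, both below the other iMPC cells. Sfrp2, a secreted Wnt modulator, was at 1.68, 4.86 and 78.9 CPM and Vegfd at 6.05, 1.11 and 117 CPM, both below MEF.

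Mesenchymal transcription factors were higher in 12 of 24 genes and lower in 2 against the other iMPC cells, and higher in 10 and lower in 3 of 24 against MEF. Prrx1, a limb and connective tissue homeobox factor, was at 731, 259 and 207 CPM, Ebf1 at 194, 22.7 and 77.4 CPM, Runx2, a bone lineage factor, at 43.2, 9.01 and 17.1 CPM, and Osr1 at 33.9, 9.53 and 11.6 CPM. Zeb2 and Runx1 were above MEF but within 2-fold of the other iMPC cells, at 248, 146 and 27.3 CPM and 152, 143 and 25.4 CPM. Msx1 was at 13.8 CPM against 2 UMIs in all Dcn MEF cells (log2 ratio 8.35, 6.45 to 11.42). Nfix was the gene furthest below MEF, at 32.3, 37.4 and 279 CPM, and Nfib was below both sets at 14.5, 33.3 and 42.1 CPM. Tcf21, of several visceral fibroblasts, had no UMI in any set.

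Chemokine and complement genes were higher than in the other iMPC cells in all 11 tested, and split against MEF, 6 higher and 7 lower of 15. Members such as Cxcl10 and Il6, at 1.85 and 2.66 CPM in the other iMPC cells, passed 10 CPM through the Dcn-high cells alone. They could only be called higher, so the count against the other iMPC cells was partly set in advance. Cxcl12, the chemokine that retains stem cells in niches, was at 2.18, 1.40 and 203 CPM, a log2 ratio of -6.54 (-7.45 to -5.77) against MEF. The monocyte attractants Ccl2 and Ccl7 were at 181, 17.4 and 635 CPM and 194, 12.1 and 653 CPM. Il33, an alarmin, was at 179, 37.0 and 1.71 CPM (log2 ratio against MEF 6.71), Cxcl14 at 103, 20.1 and 14.0 CPM and Il6 at 16.1, 2.66 and 0.212 CPM. Il1rl1, the receptor of interleukin-33, had 3.03, 0.190 and 103 CPM. Lif, a cytokine of stem cell cultures, was at 15.97, 1.14 and 2.01 CPM. Cxcl10 (41.2, 1.85 and 1.48 CPM) rested on few cells, and without its 16 highest its log2 ratio was -1.80 against the other iMPC cells. By the same check -0.06 remained for Il6, and 7 of the 11 genes stayed 2-fold above the other iMPC cells. Complement genes were nearly silent, with C3 at 0.336, 0.0529 and 0.0635 CPM and C1s1 at 5.38, 0.397 and 3.98 CPM.

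Genes of oxidation and antioxidant defence were higher in 12 of 15 against the other iMPC cells, with none lower, and higher in 11 and lower in 1 of 15 against MEF, where 7 of the 11 stayed higher without the 16 highest cells of each gene. Nqo1 and Gclm, classic targets of the stress factor NRF2, were at 193, 33.8 and 10.2 CPM and 133, 33.3 and 46.3 CPM. Gsta4, a glutathione transferase, was at 246, 34.5 and 10.7 CPM, and Sod3, the extracellular superoxide dismutase, at 64.0, 6.17 and 1.23 CPM. Cyp26b1 had the largest ratio against MEF here (7.67, 7.28 to 8.09), beside Crabp1, which handles the same ligand and did not differ from MEF by 2-fold.

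The largest ratios of all against MEF, among genes at or above 50 CPM, were Scara5, Ndufa4l2, Tnnc2, Tnfrsf9, H2-Ab1, Myl1, Apold1, Actc1, Areg and Plvap. Scara5, a ferritin receptor, was at 95.5 CPM against 1 UMI in all Dcn MEF cells (log2 ratio 12.14, 9.65 to 17.44). Ndufa4l2, a mitochondrial protein induced by low oxygen, was at 1407, 462 and 0.423 CPM. It was found in 99.4% of the Dcn-high cells, 84.2% of the other iMPC cells and 0.872% of the Dcn MEF cells (unthinned). In iMPC cells with no Pax7, at most 1 Myog and no Dcn UMI it stood at 890 CPM. In those of 3 or 4 Dcn UMIs it stood at 1341 CPM, against 1202 CPM at 5 to 9 and 1591 CPM at 50 or more. Tnfrsf9, a TNF receptor family member, was at 218, 16.8 and 0.106 CPM, Apold1 at 186, 22.2 and 0.233 CPM and Plvap at 54.1, 9.93 and 0.106 CPM. H2-Ab1, a class II antigen presentation gene, was at 65.7, 19.7 and 0.0635 CPM, while Ptprc of blood cells had no UMI. Free RNA alone would give 6.44 CPM for Ndufa4l2 and 0.192 CPM for Tnfrsf9. The genes furthest below MEF were Ctla2a, Gm2115, Cdh4, Perp, Gpr149, Aspn, Cxcl12, Fbln5, Galnt17 and Lrrc15. Ctla2a and Gpr149 had no UMI in the Dcn-high cells, and with 0 set to 3 counts they were at least 304-fold and 117-fold lower. Gm2115 was at 0.672 against 136 CPM, Galnt17 at 1.34 against 68.0 CPM, and Cdh4 and Perp had 2 and 3 UMIs, for log2 ratios against MEF of -7.50 (-10.54 to -5.64) and -6.98 (-9.26 to -5.43).

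Some vessel wall genes were above MEF, where contractile genes were below it. Of the smooth muscle and pericyte genes 6 of 8 were higher and 1 lower against the other iMPC cells, and 5 higher and 5 lower of 10 against MEF. Without the 16 highest cells of each gene, 1 of the 6, Kcnj8, stayed 2-fold above the other iMPC cells and 4 of the 5 stayed above MEF. Kcnj8 and Abcc9, which together form the potassium channel of pericytes, were at 37.6, 8.26 and 0.0212 CPM and 31.1, 11.7 and 0 CPM. Kcnj8 had 1 UMI in all Dcn MEF cells (log2 ratio 10.80, 8.30 to 16.11), and Abcc9 had none, so it was at least 489.5-fold higher. Rgs5, a pericyte regulator of G proteins, was at 57.0, 17.4 and 0.466 CPM and Mcam at 37.8, 11.4 and 11.1 CPM. Rgs5 was found in 22.3% of the cells, with 67.6% of its UMIs in 16 of them, and without these its log2 ratio against the other iMPC cells went from 1.71 to 0.14. Abcc9 went to 0.71 and Mcam to 0.91. Des, which encodes desmin and is also a muscle gene, was at 195, 1226 and 0.381 CPM, against 38.8 CPM from free RNA. Cnn1, Actg2 and Cspg4 were lower than in MEF, at 4.03 against 47.7 CPM, 44.4 against 156 CPM and 3.87 against 10.4 CPM. Actg2 was above the other iMPC cells only with its 16 highest cells, without which its log2 ratio was -1.67.

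Fewer Dcn-high cells than other iMPC cells held division genes. Of the mitosis genes 15 of 16 were lower than in the other iMPC cells and none was higher (median -1.58), and of the DNA replication genes 8 of 14 were lower. Top2a, the topoisomerase of dividing cells, was at 59.5, 216 and 27.4 CPM, and at 5000 UMIs it was found in 6.90% (4.37 to 10.3), 35.3% (34.3 to 36.3) and 5.56% (4.64 to 6.61) of the 3 sets (unthinned 17.9%, 49.03% and 10.1%). Mki67 was found in 5.96%, 24.8% and 4.18% (unthinned 10.7%, 40.8% and 7.85%). Against MEF 4 of 13 mitosis genes were higher. These were Mki67, Top2a, Cenpa and Nusap1, and each turned below MEF without its 16 highest cells, to log2 ratios of -1.28, -0.98, -0.25 and -1.43. All 13 changed sign in this check. It keeps every MEF cell, so for genes held by few cells it takes dividing cells out of the Dcn-high set alone. It therefore cannot decide whether division differed from MEF. Of the DNA replication genes 1 was higher and 2 lower of 12 against MEF.

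The inhibitors Cdkn1a and Cdkn2a were found in nearly all cells. Cdkn1a, which encodes p21, was at 736, 774 and 699 CPM, within 2-fold of both sets. Cdkn2a, which encodes p16 and ARF, was at 1294, 577 and 1219.6 CPM. It was found in 100% of the Dcn-high cells, 98.9% of the other iMPC cells and 99.7% of the Dcn MEF cells (unthinned). Cdkn1c, which encodes p57 and marks muscle precursors leaving the cycle, was at 58.8, 1294 and 160.2 CPM, the lowest of the 3. In the filtered iMPC cells with no Dcn, no Pax7 and at most 1 Myog UMI it was at 208 CPM. Cdkn1c is imprinted, and of the imprinted growth genes 8 of 10 were lower than in the other iMPC cells and none was higher (median -2.30). Mest and Dlk1 were at 19.7, 290.2 and 31.3 CPM and 24.0, 246 and 32.4 CPM, and Peg3 at 131, 528 and 158 CPM. Against MEF 2 of 8 were lower, Cdkn1c and Ndn (41.2, 59.4 and 154 CPM).

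The Dcn-high cells were not uniform. After thinning to 5000 UMIs, the Fano factor (near 1 for counting noise) had a median of 1.11 over 3211 genes, and the 10 highest were Cxcl10, Ccl5, Spp1, Cck, Mmp3, Acta2, Fabp5, Grp, Ccl2 and Acta1, the last the muscle gene described beside free RNA above. Cck, which encodes cholecystokinin, had a Fano factor of 34.6, was found in 39.2% of the thinned cells and reached 98 UMIs in one of them. Its level was 1139, 104 and 62.0 CPM. Mmp3 had a Fano factor of 28.1 and reached 74 UMIs, and Acta2 one of 27.7 and 66 UMIs, with a median of 0 UMIs in both genes. Spp1 varied differently: it had a median of 61.0 UMIs and a highest cell of 310, so nearly all cells held it and its level ranged widely. In the Dcn MEF cells the Fano factors were 11.8 for Cck, 9.91 for Mmp3, 27.7 for Acta2 and 28.0 for Spp1.

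High counts of these genes lay in partly different cells. Of the 319 cells, 102 held at least 5 Cck UMIs (32.0%), 57 at least 5 Acta2 UMIs (17.9%) and 45 at least 5 Mmp3 UMIs (14.1%), in unthinned counts. Cck and Acta2 met in 7 cells, which is 6.86% of the Cck cells and 12.3% of the Acta2 cells. Acta2 and Mmp3 met in 2 cells, 3.51% and 4.44% of each. Cck and Mmp3 met in 19 cells, 18.6% of the Cck cells and 42.2% of the Mmp3 cells. Acta2 and Mmp3 thus shared few of their high cells. The chemokines Ccl2 and Ccl7, neighbouring genes, met in 27 cells of 52 and 62. Cxcl10 was found in 3 thinned cells, and all 3 cells with at least 5 Cxcl10 UMIs were among the 18 with at least 5 Ccl5 UMIs.

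**Figure D5:**
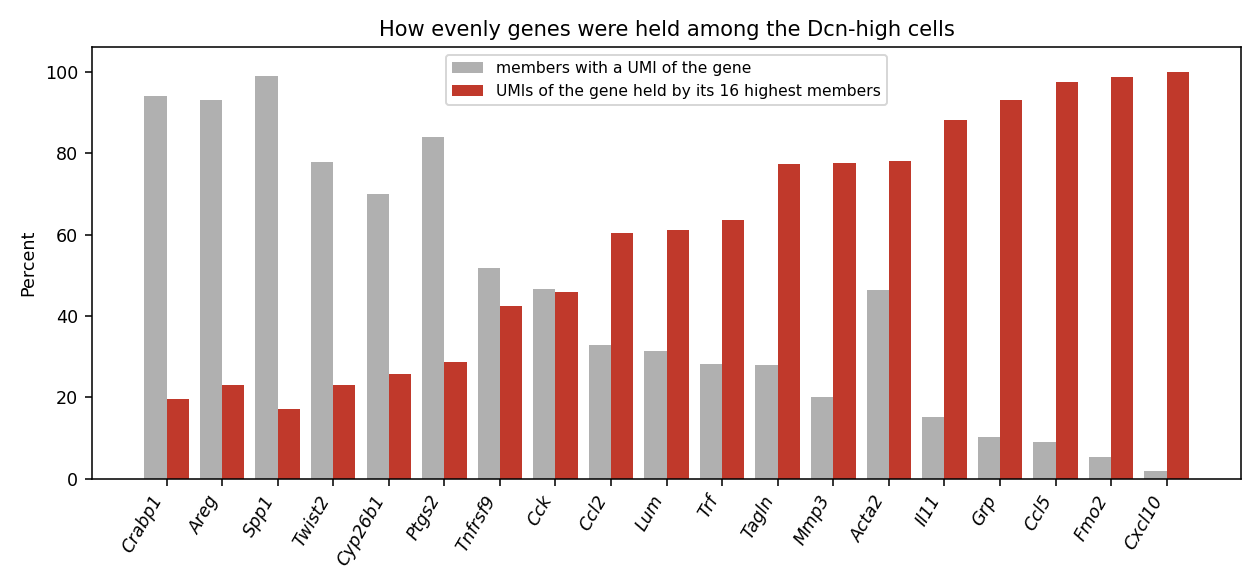
Share of the 319 Dcn-high cells with a UMI of each gene (grey bars, percent, unthinned) and share of the gene's UMIs held by its 16 highest cells (red bars, percent). Crabp1, Areg and Spp1 are spread over more than 93% of the cells, while Mmp3, Acta2, Grp, Ccl5, Fmo2 and Cxcl10 have 77.6% to 100% of their UMIs in 16 cells.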

How the data were processed

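Droplet 3′ RNA sequencing was deposited for 1 iMPC and 1 MEF library as raw UMI counts per gene and barcode, per the file headers, with no normalization by the authors in the values. The submitters' processing notes name Cell Ranger 4.0, Seurat 3.2.3 and GRCm38.p6. The aligner settings and the annotation are not given in the sources used here. The deposited iMPC table holds all 6794880 barcodes (282903287 UMIs), before any choice of cells. The MEF table holds 6113 barcodes (118541302 UMIs) chosen in a way not given in the sources used here.

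The 26100 genes of both matrices were used. Filters and the Dcn, Pax7 and Myog conditions are given above. The Dcn-high cells, the gene groups and the comparisons were chosen with earlier results of these data known. UMIs were summed per set of cells and scaled to CPM. Intervals are exact at 95% (Poisson for levels, conditional for ratios, Clopper-Pearson for shares) and cover counting error only. With 1 library per group no test was made. Thinning drew UMIs without replacement to 5000 per cell and left out 4 Dcn MEF cells. Doublets were kept and scored with Scrublet in scanpy 1.11.5. Its own threshold marked 0 MEF cells, so an alternative removed the highest 289 scores (4.81%). Named genes are the 5 markers of the label, the 10 largest ratios each way in each comparison at or above 50 CPM, the 10 highest Fano factors, and in each group up to 4 genes by level and the gene nearest to a ratio of 1. Other genes were named after their values were seen. Positions are from GENCODE M21 and promoters from RefSeq. Python 3.11.15, numpy 2.4.6, scipy 1.17.1 and pandas 2.3.3 were used, and the ratio and interval code was tested on simulated data.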

Additional observations from a re-analysis of the deposited data

Results flagged for a closer look

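Dcn was measured at 57.1 CPM in iMPC barcodes of 1 to 100 UMIs, whose Dcn enters no comparison above. This is over the 0.342 CPM that a count of 0 would allow there. It is also over the 19.1 CPM in barcodes of 200 to 600 UMIs and the 26.2 CPM in the other iMPC cells, and far under the 1541 CPM of the Dcn-high cells. Lum was at 10.2 CPM in the smallest barcodes and 2.49 CPM in those of 200 to 600 UMIs. How these barcodes came by their Dcn was not tested.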

How the results depend on the processing

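The share of Dcn-high cells was 3.99% at a Dcn threshold of 3 UMIs, 2.67% at 10 and 5.92% with any Pax7 and Myog, against 3.41%. It was 3.18% to 3.53% with doublets removed, other UMI minimums, at most 10% mitochondrial UMIs or thinned cells. The counts of genes higher and lower than in the other iMPC cells (1458 and 1100) were 619 and 408 when the higher side had to reach 50 CPM, 4514 and 2074 with no minimum level, and 2372 and 1895 at 1.5-fold. Against MEF (1037 and 1200) they were 414 and 448, 2392 and 2296, and 1645 and 2383. Each of these counts stayed within 1.5 times its value with Dcn at least 10 UMIs, doublets removed, the mean of each cell's CPM, both other scalings and free RNA subtracted, and those against MEF also with other MEF cells and with thinned cells.

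Among the alternatives for named genes, 1649 ratios stayed within their counting interval and 879 moved outside it, besides the 11 below. Leaving out the 16 cells richest in the gene, an alternative chosen after seeing the data, changed the sign of 30 of 361 ratios, and the other alternatives changed that of 26 of 2178. Of all these, 11 had been past 2-fold, each with the richest cells left out. Against the other iMPC cells these were Fmo2 (-1.46), Dkk2 (-0.26), Cxcl10 (-1.80), Actg2 (-1.67) and Tagln (-0.93), and against MEF Fmo2 (-2.52), Nusap1 (-1.43), Cenpa (-0.25), Cxcl10 (-1.48), Mki67 (-1.28) and Top2a (-0.98). Of the named genes called higher, 89 of 99 stayed 2-fold above the other iMPC cells and 74 of 92 above MEF. Leaving out a gene's richest cells by its construction tends to lower it in the Dcn-high cells, since all cells of the compared set were kept. The median of the DNA replication genes against MEF was -0.06 and lay at 0.09 under median scaling. No paired analysis was possible because each group has 1 library. Depth limits genes with few UMIs: 3 counts are 0.504 CPM in the Dcn-high cells, 0.0132 CPM in the other iMPC cells and 0.0635 CPM in the Dcn MEF cells.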

Other observations

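A few genes known from tissues other than connective tissue stood above both other sets in small shares of the Dcn-high cells. S100b, a calcium-binding protein used as a glial marker, was at 17.8 CPM in the Dcn-high cells, 0.644 CPM in the other iMPC cells and 0.169 CPM in the Dcn MEF cells, in 11.9% of the cells, while Sox10 had no UMI. Fabp4, a fatty acid carrier of fat and endothelial cells, was at 20.8, 2.10 and 0.381 CPM, in 13.5%, with Adipoq at 0 UMIs. Snap25, a vesicle fusion protein of neurons, was at 22.7, 3.46 and 0 CPM, in 23.5%, and Rbfox3 and Syt1 had no UMI. Its MEF value rests on no UMI, so with 0 set to 3 counts it was at least 357-fold higher. Sox10, Adipoq, Rbfox3 and Syt1 were thus at 0 in the same cells. The other tested genes of these groups were not higher than in the other iMPC cells. Erbb3 of glia was lower, at 0.336 against 15.0 CPM, as was Stmn2 of neurons, at 24.5 against 114 CPM. Stmn2 was higher than in MEF, where it stood at 5.74 CPM. Tubb3 of neurons (40.7 against 55.5 CPM) and Lpl of fat cells (86.2 against 91.8 CPM) were within 2-fold of the other iMPC cells.

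Satellite cell genes other than Pax7 were lower than in the other iMPC cells in 4 of 7 tested cases and higher in 0, and of the myoblast genes 6 of 7 were lower and 1, Rgs16, was higher. The conditions on Pax7 and Myog tend to place cells with such genes in the other set, so these counts were partly set in advance. Notch3 and Spry1, which are also expressed outside muscle, were at 38.1, 34.0 and 11.1 CPM and 34.5, 31.0 and 65.9 CPM. Cdh15 was at 11.1, 164 and 0.529 CPM, against 2.34 CPM from free RNA. Scx, the tendon factor, was at 0.840, 10.1 and 4.04 CPM and Sox9 at 76.8, 50.03 and 44.3 CPM.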
